A study of Mus musculus with 16 samples.

Results

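Octanol and vehicle exposures were compared within GFP+ cells of the mouse olfactory mucosa, the lining of the nose that holds the odor-sensing neurons. The comparison rests on the 8 GFP+ arrays of a series of 16, chosen by their labels, with 4 octanol arrays against 4 vehicle arrays and all 19505 measured genes. All mice carried the S100a5-tauGFP reporter, in which green fluorescent protein marks the neurons that switch on S100a5, and GFP+ cells were collected by fluorescence-activated sorting. The study used 24 mice of both sexes aged 7 to 12 weeks, housed in chambers for 40 h with air flowing at 3.1 L/min. From 26 h on they received pulses of 10 s every 20 min, of octanol in 1 group and of filtered air (vehicle) in the other. Each array holds RNA pooled from 3 mice, made into biotinylated cRNA from 50 to 100 ng of total RNA and hybridised to a Clariom S array, which reads each gene through a probe set. The 8 GFP- arrays, from the cells without reporter signal, are used here only for comparison. Replicates are pools, so a p-value measures the spread between pools of mice. In sorted bulk RNA, fewer cells of a type and less RNA per cell cannot be told apart.

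An olfactory sensory neuron carries 1 kind of odorant receptor out of a very large family. Odor binding activates a stimulatory G protein, adenylyl cyclase makes cyclic AMP, and cation and chloride channels open in the cilia. Active neurons raise a set of genes that includes S100a5, a calcium-binding protein, and fluorescence from its promoter has been used to collect neurons whose receptors respond to an odor. Class I receptors are the older, fish-like branch of the family and are known for binding carboxylic acids and other hydrophilic odorants, while class II receptors make up most of the mammalian family. Octanol is a straight-chain aliphatic alcohol. The tissue also holds sustentacular cells, which support the neurons and metabolise odorants, Bowman glands, which secrete mucus, basal stem cells and blood-derived immune cells.

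Levels are log2 signals as deposited, so a difference of 1 log2 is a 2-fold change. Over all genes, GFP+ arrays correlated at 0.9903 to 0.9936 within an exposure and at 0.9893 to 0.9944 between exposures. Array medians ran from 7.85 to 7.91 log2. Background was set at 6.32 log2, the level under which 95% of 319 vomeronasal receptor genes, mostly expressed in another organ, had their mean, and 12619 genes (64.7%) had a GFP+ mean above it. Of the 1091 odorant receptor genes, 982 lay above that level. Omp, the marker of mature olfactory neurons, was at 18.22 ± 0.04 log2 in octanol arrays and 18.18 ± 0.02 in vehicle arrays (SD, n = 4). The vehicle array of replicate 2 stood apart by its receptors, as given with the class I genes.

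Upstream sequences are shown for 4 genes on which the account turns: S100a5, whose activity the reporter follows, S100a9, the gene with the largest difference among those whose groups did not overlap, and Bpifb9a and Bpifb9b, a pair of secretory genes with large differences between pools. Each is the 250 bases before the annotated start, 5′ to 3′ on the gene's strand, from RefSeq on GRCm38.p6. Capitals mark the TATA box letters TATAAA, the cyclic AMP response element core TGACG and the homeodomain core TAATTA, each searched on both strands.
S100a5, chr3:90608272-90608521 (+): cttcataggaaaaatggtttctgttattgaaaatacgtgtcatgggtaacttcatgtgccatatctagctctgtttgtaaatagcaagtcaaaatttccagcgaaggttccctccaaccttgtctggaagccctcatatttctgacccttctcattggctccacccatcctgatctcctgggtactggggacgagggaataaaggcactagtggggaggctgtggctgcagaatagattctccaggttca
S100a9, chr3:90695722-90695971 (-): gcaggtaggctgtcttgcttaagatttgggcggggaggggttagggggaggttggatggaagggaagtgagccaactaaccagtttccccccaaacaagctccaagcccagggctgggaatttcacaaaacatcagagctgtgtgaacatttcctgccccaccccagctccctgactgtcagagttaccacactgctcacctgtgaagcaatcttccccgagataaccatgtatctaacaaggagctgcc
Bpifb9a, chr2:154257629-154257878 (+): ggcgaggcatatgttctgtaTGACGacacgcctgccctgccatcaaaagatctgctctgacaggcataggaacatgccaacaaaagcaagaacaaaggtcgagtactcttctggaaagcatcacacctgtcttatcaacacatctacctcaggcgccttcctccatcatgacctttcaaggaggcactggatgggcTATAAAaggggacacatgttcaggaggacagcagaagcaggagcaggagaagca
Bpifb9b, chr2:154306994-154307243 (+): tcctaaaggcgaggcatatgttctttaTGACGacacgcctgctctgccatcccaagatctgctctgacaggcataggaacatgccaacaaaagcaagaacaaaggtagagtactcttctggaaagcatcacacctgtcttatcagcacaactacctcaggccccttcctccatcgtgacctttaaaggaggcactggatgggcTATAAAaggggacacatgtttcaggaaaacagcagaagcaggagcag
The windows of Bpifb9a and Bpifb9b each held 1 TATAAA, beginning 54 and 47 bases before the start, and 1 TGACG, beginning 230 and 223 bases before it. None of the 3 motifs was in the windows of S100a5 and S100a9. Of 32851 mouse promoters of the same length in the table, 12.4% held TATAAA, 17.8% TGACG and 4.8% TAATTA. Among the 948 odorant receptor promoters the shares were 39.2%, 4.2% and 18.0%. Aligned over 242 bases, the Bpifb9a and Bpifb9b windows matched at 230 (95.04%), and the deposited values do not show how far their probes can tell the 2 transcripts apart.

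The comparison asks which genes, receptors above all, change in reporter-positive cells when the mice smell octanol. Of 19505 genes, 0 passed an adjusted p of 0.05 in limma (0% called), and the smallest adjusted p was 0.9996. At an unadjusted p under 0.05, 440 genes were higher after octanol (2.26%) and 287 lower (1.47%). These counts were 351 and 359 after each array was centred on its median, 350 and 381 after quantile normalization, 164 and 275 after centring on the receptors, and 673 and 350 without octanol replicate 2. The 4 octanol and 4 vehicle values did not overlap for 243 genes that were higher (1.25%) and 188 that were lower (0.964%). The median difference over all genes was 0.006 log2 with a median standard error of 0.15. The values that follow describe the genes with the clearest separation, and none of them passed the adjusted test.

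**Figure D1:**
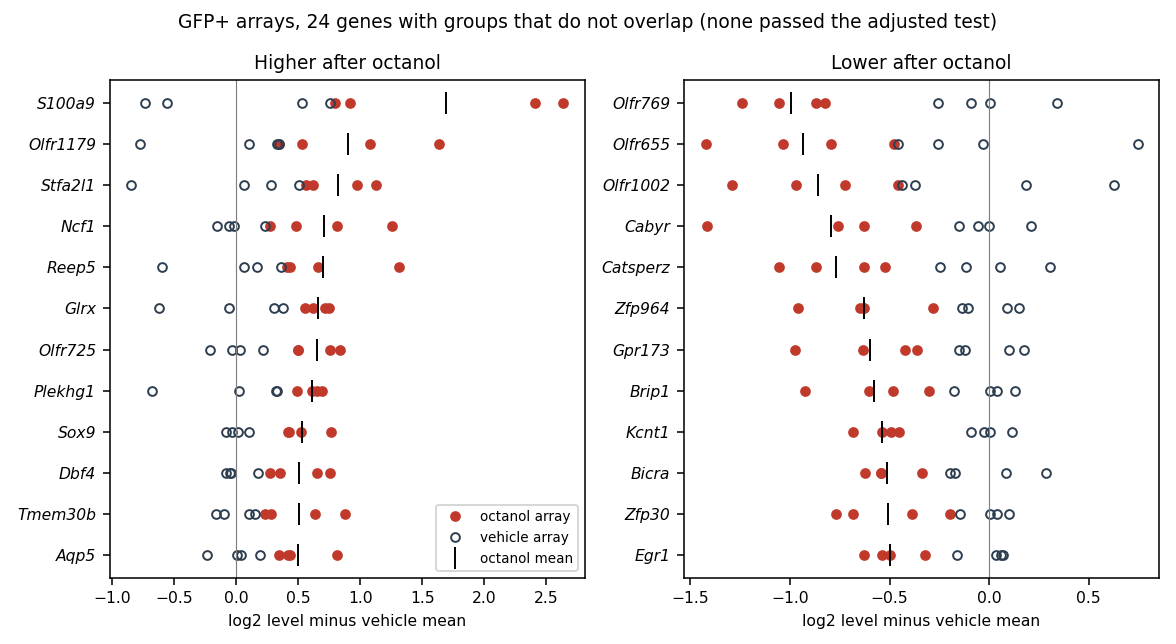
GFP+ log2 level of each array minus the vehicle mean (horizontal axis) for 24 genes whose groups of 4 did not overlap, octanol arrays filled, vehicle arrays open, the vertical tick the octanol mean. S100a9 has the largest mean difference on the higher side at 1.69 log2, although 2 of its octanol arrays lie just above the highest vehicle array, and Olfr769 has the largest on the lower side at -0.997 log2.

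Among odorant receptors the median difference was 0.013 log2, and it was -0.007 after each array was centred on its median and -0.031 after centring on the receptors. At the unadjusted level 26 receptors were higher (2.38%) and 16 lower (1.47%), close to the shares over all genes. Groups did not overlap for 3 receptors that were higher (0.275%, against 1.25% of all genes) and 8 that were lower (0.733%, against 0.964%). Olfr725, a class II receptor on chromosome 14, gave 11.39, 11.31, 11.06 and 11.05 log2 in octanol replicates 1 to 4 and 10.77, 10.52, 10.34 and 10.59 in vehicle replicates. Every octanol array of Olfr725 lay above every vehicle array, by 0.65 log2 ± 0.13 (SE), a 1.57-fold difference (95% interval 0.35 to 0.95 log2). Olfr1179, class II on chromosome 2, read 9.84, 8.55, 8.74 and 9.28 log2 after octanol and 8.31, 7.42, 8.55 and 8.53 after vehicle. Its groups were separated by a narrow margin, with a mean difference of 0.90 log2 ± 0.32 (SE) and a 95% interval of 0.18 to 1.61. Olfr826 had the largest positive difference of the receptors above background, 0.94 log2 ± 0.59 (SE), but its vehicle arrays ran from 6.0 to 9.34 log2 and enclosed all octanol values (95% interval -0.38 to 2.25).

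On the lower side, Olfr769, a class II receptor on chromosome 10, had the smallest unadjusted p of all genes tested. Its octanol arrays read 7.25, 7.62, 7.67 and 7.43 log2 and its vehicle arrays 8.23, 8.49, 8.83 and 8.40. The groups, at 7.49 ± 0.19 and 8.49 ± 0.25 log2 (SD, n = 4), were farther apart than either one's spread, and the difference was -0.997 log2 ± 0.15 (SE; 2-fold; 95% interval -1.34 to -0.65; adjusted p = 0.9996 in limma). In GFP- cells Olfr769 read 9.91, 10.63, 10.13 and 10.39 log2 after octanol and 10.59, 10.66, 10.55 and 10.39 after vehicle, a difference of -0.28 log2 ± 0.16 (SE), and the groups overlapped. Olfr655, a class I receptor on chromosome 7, read 9.31, 9.70, 10.26 and 9.94 log2 after octanol and 10.48, 11.48, 10.28 and 10.71 after vehicle. Octanol replicate 3 and vehicle replicate 3 of Olfr655 nearly touched, and the difference was -0.93 log2 ± 0.27 (SE; 95% interval -1.54 to -0.32). Olfr1002, class II on chromosome 2, read 6.46, 5.95, 5.63 and 6.20 log2 after octanol and 6.55, 7.11, 7.55 and 6.48 after vehicle, with 1 octanol array above background. Its measured difference was -0.86 log2 ± 0.26 (SE). The other 2 receptors named by the rule were Olfr1316 at -0.30 log2 and Olfr856-ps1 at -0.45 log2, the latter near background in both groups.

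**Figure D2:**
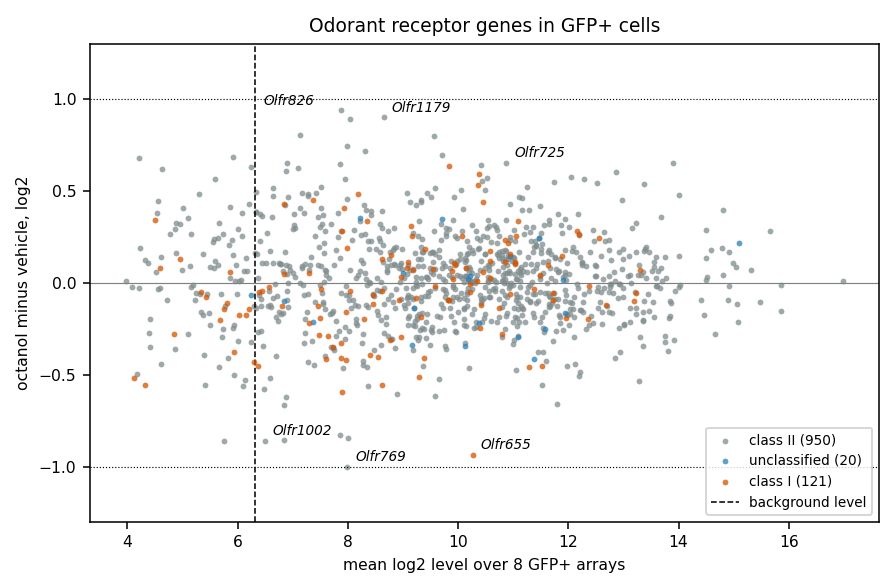
Difference between octanol and vehicle (vertical axis, log2) against the mean level over 8 GFP+ arrays (horizontal axis, log2) for 1091 odorant receptor genes by class, with the background level dashed and 1 log2 dotted. No receptor lies beyond 1 log2 on either side, and the extremes are Olfr769 at -0.997 and Olfr826 at 0.94.

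The intervals show which receptor changes 4 arrays against 4 could have missed. Of the 982 receptors above background, 928 had a difference within 0.5 log2 of 0 and 0 lay beyond 1 log2. The 95% interval stayed below a 2-fold increase for 811 receptors (82.6%) and reached it for 171. It lay within 2-fold in both directions for 724 (73.7%), and the median distance from a difference to its interval limit was 0.57 log2. Over all 12619 genes above background, the share within 2-fold was 96.6%, with a median distance of 0.32 log2. Receptors thus had wider intervals than genes in general, with a median SE of 0.255 against 0.142 log2.

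**Figure D3:**
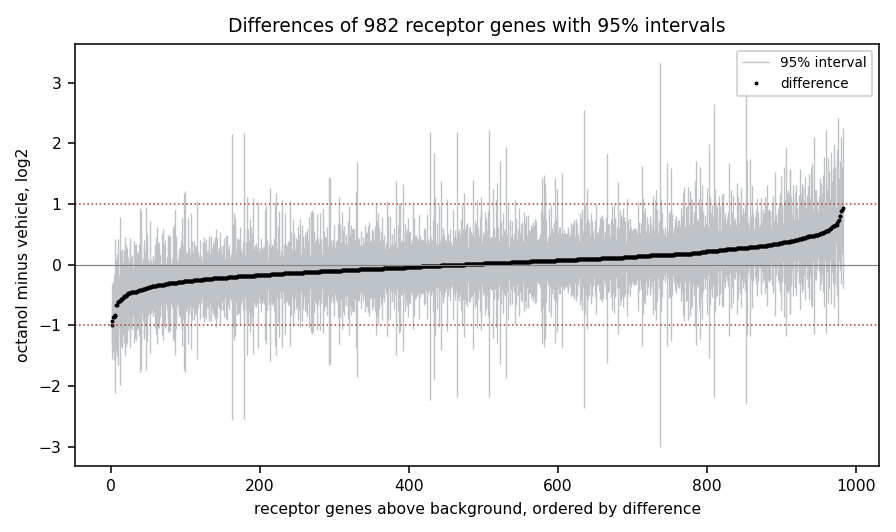
Difference between octanol and vehicle in GFP+ arrays (black points, log2) with its 95% interval (grey lines) for the 982 receptor genes above background, ordered by difference along the horizontal axis, with 1 log2 dotted. For 171 receptors the interval reaches the upper dotted line.

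Receptors with reported ligands among aliphatic acids, aldehydes or alcohols were taken from a list of 12, of which 11 were measured. At the unadjusted level 0 of the 11 differed in either direction, and the median was -0.046 log2, which moved between -0.23 and 0.20 as single arrays were left out. Olfr2, the mouse form of the octanal receptor I7, read 7.60, 7.91, 6.82 and 7.22 log2 after octanol and 7.83, 8.43, 7.27 and 7.61 after vehicle. The groups overlapped, with a difference of -0.40 log2 and a 95% interval of -1.02 to 0.23. Olfr691, a class I receptor known for binding aliphatic acids, read 9.13, 9.47, 9.58 and 9.05 log2 against 8.56, 9.85, 8.63 and 8.94, with a difference of 0.31 log2 and an interval of -0.29 to 0.91. The interval of each of these 2 receptors included 0. Of the 14 trace amine receptors, a small separate family that detects amines, 0 differed at the unadjusted level and the median was 0.001 log2. The largest difference among them was Taar5 at 0.37 log2, near background (95% interval -0.17 to 0.91).

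Class I receptors and trace amine receptors were high in 1 vehicle GFP+ array. The median level of the 121 class I receptors was 9.18, 9.48, 8.86 and 8.69 log2 in octanol replicates 1 to 4 and 8.90, 10.33, 8.54 and 8.68 in vehicle replicates 1 to 4. Vehicle replicate 2 was the highest of the 8, and 89 of 121 class I receptors (73.6%) had their highest value there, against 9 of 14 trace amine receptors (64.3%), 239 of 950 class II receptors (25.2%) and 2298 of all 19505 genes (11.8%). The same array held the lowest value of 213 class II receptors (22.4%), so that class was spread both ways there. It was lowest for 3 class I receptors (2.48%), 2 trace amine receptors (14.3%) and 12.9% of all genes. In the GFP- arrays the class I median ran from 7.92 to 8.57 log2, again highest in vehicle replicate 2, with vehicle replicate 1 next at 8.44. The trace amine median of the GFP- arrays was instead highest in vehicle replicate 1, at 10.357 log2, with vehicle replicate 2 at 10.113. The class I difference between exposures was -0.046 log2 (2 higher and 2 lower of 121 unadjusted, 1.65% each, against 2.26% and 1.47% of all genes) and 0.28 log2 without vehicle replicate 2, the highest of the values with single arrays left out, of which the lowest was -0.165. The class II difference was 0.020 log2, with 24 of 950 higher (2.53%) and 14 lower (1.47%), near the shares over all genes.

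The genes above background with the largest spread within groups were Olfr231, Olfr1451, Bpifb9a, Olfr250, Olfr1043 and Bpifb9b. Olfr231, a class II receptor on chromosome 1, read 8.81, 8.97, 6.01 and 6.79 log2 after octanol and 7.68, 11.88, 4.005 and 6.35 after vehicle. It was highest in vehicle replicate 2 and lowest in vehicle replicate 3, and in GFP- arrays it stayed between 11.44 and 12.39 log2. Olfr1451 ran from 5.64 to 11.24 log2 over the GFP+ arrays, with the same 2 vehicle arrays at the ends. Olfr250 ran from 7.44 to 12.99 and Olfr1043 from 6.39 to 11.80 log2, with the same array highest and the same lowest. These 4 receptors shared the highest and the lowest array and lie on chromosomes 1, 19, 9 and 2. Their differences between exposures were 0.16, 0.28, 0.094 and 0.23 log2, each with an SE above 1 log2.

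For the reporter's own gene and the genes listed as following activity, the octanol and vehicle arrays overlapped. Cells of both exposures had been sorted by the S100a5 reporter. Close levels here therefore do not show that octanol left these genes unchanged in the tissue. S100a5 read 16.77, 16.77, 16.86 and 16.79 log2 after octanol and 16.92, 17.02, 16.75 and 16.91 after vehicle. Octanol values lay inside the range of the vehicle values, and the difference was -0.10 log2 with a 95% interval of -0.33 to 0.13. GFP- arrays were not free of S100a5 RNA, with means of 15.934 log2 after octanol and 16.08 after vehicle. Omp there was at 18.101 and 18.114 log2, so GFP- cells included mature neurons. Of 9 genes known to be raised by activity, 0 differed at the unadjusted level, with a median of 0.041 log2. Pcp4l1, a small neuronal protein gene of that list, differed by 0.047 log2 ± 0.11 (SE). Kirrel2, an adhesion molecule of neurons with active receptors, differed by 0.26 log2 ± 0.34 (SE) and ran from 13.84 to 15.49 log2 over the arrays. The 4 genes known to be lowered by activity had a median of -0.088 log2 and 0 unadjusted differences, with Kirrel3 at -0.092 and Efna5 at -0.12 log2.

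Immediate early genes, which neurons switch on within minutes of firing, had a median of -0.054 log2 over 19 genes, with 1 lower and 0 higher at the unadjusted level, where 1.47% of all genes were lower. That 1 was Egr1, a zinc finger transcription factor, at 7.95, 8.07, 8.04 and 8.25 log2 after octanol and 8.63, 8.41, 8.61 and 8.64 after vehicle. All 4 octanol arrays were below all vehicle arrays, by -0.49 log2 ± 0.11 (SE; 1.41-fold; 95% interval -0.75 to -0.24; not past the adjusted threshold). Fos, the classic marker of the family, read 8.30, 8.84, 9.34 and 9.20 log2 after octanol and 8.77, 8.58, 8.77 and 8.81 after vehicle, and the groups overlapped (difference 0.18 log2 ± 0.21, SE). Fosb differed by 0.11 log2 and Arc, a synaptic protein gene near background here, by -0.40 log2. In GFP- arrays Egr1 was at 11.98, 12.05, 12.54 and 11.997 log2 after octanol and 12.52, 11.60, 12.50 and 12.40 after vehicle.

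The machinery of odor detection was measured with small errors and close levels in both exposures. The 11 genes of odor transduction ranged from -0.074 to 0.070 log2 in their differences, with a median of 0.001 log2, and all 11 intervals lay within 2-fold. Gnal, the olfactory G protein subunit, differed by -0.056 log2 ± 0.10 (SE). Adcy3, the adenylyl cyclase of the cilia, differed by -0.025 log2 ± 0.10, and Cnga2, the main subunit of the cyclic nucleotide-gated channel, by 0.059 log2 ± 0.10. The 9 genes of receptor transport and choice had a median of -0.046 log2, all 9 differences below 0 and 0 past the unadjusted level. Of all 19505 genes, 10103 had a difference above 0. Emx2, a transcription factor of receptor-expressing neurons, had the largest of these at -0.18 log2 ± 0.13 (SE). The 5 measured genes of response termination had a median of -0.012 log2 and 0 unadjusted differences.

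Markers of neuronal maturity were close in both exposures. The 8 mature neuron genes ranged from -0.098 to 0.088 log2 with 0 unadjusted differences. Slc17a6, the vesicular glutamate transporter of these neurons, read 15.62, 15.59, 15.56 and 15.56 log2 after octanol and 15.52, 15.47, 15.55 and 15.43 after vehicle. Its groups, with SDs of 0.028 and 0.055 log2, did not overlap, and the difference was 0.088 log2. Its SE of 0.10 and 95% interval of -0.12 to 0.30 rest on limma's shared variance, not on the spread of Slc17a6 alone. The 12 immature neuron genes had a median of 0.026 log2 and 0 unadjusted differences, with Gng8, a G protein subunit of immature neurons, at 0.32 log2 ± 0.23 (SE) and Gap43, a growth cone protein gene, at 0.18 log2. Of the 10 measured axon guidance genes, the 13 genes of the unfolded protein and stress response and the 13 circadian clock genes, 0 differed at the unadjusted level, with medians of -0.010, 0.021 and -0.071 log2.

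Alcohol and aldehyde metabolism covers the enzymes that oxidise compounds such as octanol. Of 11 genes, 10 had a difference above 0, as did 10103 of all 19505 genes. The median was 0.19 log2, against 0.006 over all genes, with 1 gene higher at the unadjusted level, where 2.26% of all genes were. That gene was Adh7, an alcohol dehydrogenase of epithelia, which read 5.08, 4.78, 5.33 and 5.04 log2 after octanol and 4.54, 4.89, 4.60 and 4.68 after vehicle, under background on all 8 arrays. Aldh2, the mitochondrial aldehyde dehydrogenase, read 11.64, 11.37, 12.78 and 12.28 log2 after octanol and 11.42, 11.48, 11.95 and 11.73 after vehicle. Octanol replicates 3 and 4 were the highest 2 arrays, octanol replicate 2 the lowest, and the difference was 0.37 log2 ± 0.28 (SE; 95% interval -0.25 to 1.001). With single arrays left out the list median moved between 0.047 log2, without octanol replicate 3, and 0.27 log2. All 6 sustentacular genes, whose cells metabolise odorants, also had differences above 0 (median 0.34 log2, and 0.092 without octanol replicate 3), and their part in this difference was not tested.

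**Figure D4:**
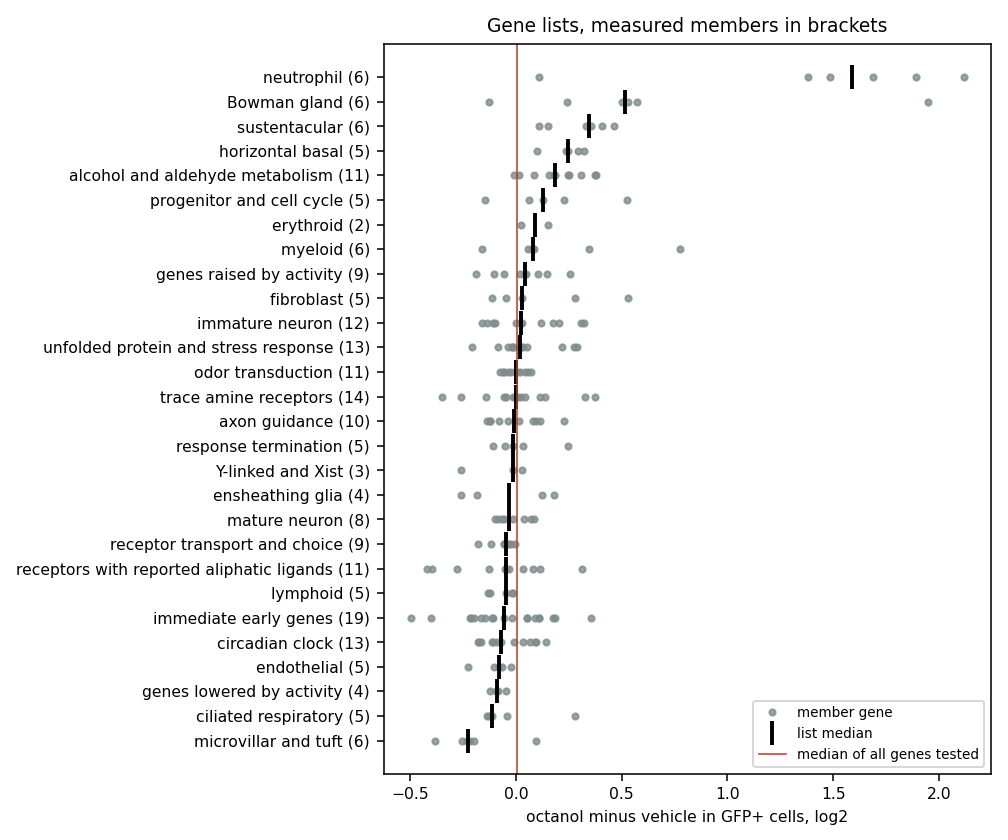
Difference between octanol and vehicle in GFP+ arrays (horizontal axis, log2) for the measured members of 28 gene lists (points) with each list's median (tick), and the median of all genes tested as a vertical line at 0.006 log2. The neutrophil list lies farthest out with a median of 1.59 log2, followed by Bowman gland at 0.52 and sustentacular at 0.34. The lists were chosen with earlier results of these data known.

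Besides receptors, the rule for named genes gave 10 genes that were higher and 9 that were lower without overlap. Among the higher ones, S100a9, which forms the calprotectin complex of neutrophils with S100a8, read 9.16, 9.04, 10.65 and 10.88 log2 after octanol and 9.0, 7.51, 7.68 and 8.77 after vehicle. Octanol replicates 3 and 4 were well above the rest, and replicates 1 and 2 barely above vehicle replicate 1, for a difference of 1.69 log2 ± 0.49 (SE; 95% interval 0.60 to 2.78). Stfa2l1, a stefin-type protease inhibitor, was above background on 4 octanol arrays and 1 vehicle array, and its measured difference was 0.82 log2. Ncf1, a subunit of the phagocyte NADPH oxidase, differed by 0.71 log2. Reep5, a membrane-shaping protein of the endoplasmic reticulum, differed by 0.70 log2, and Glrx, a glutaredoxin, by 0.66 log2. Each of Reep5, Glrx and Plekhg1 was above background on 3 of 4 vehicle arrays. Plekhg1 differed by 0.61, Tmem30b, a flippase subunit, by 0.51 and Dbf4, the activator of the Cdc7 replication kinase, by 0.51 log2. Sox9, a transcription factor of Bowman gland cells, read 7.87, 7.86, 8.20 and 7.96 log2 after octanol and 7.45, 7.41, 7.54 and 7.36 after vehicle. The Sox9 difference was 0.53 log2 ± 0.12 (SE) with a 95% interval of 0.28 to 0.79. Aqp5, a water channel of glands, read 7.39, 7.38, 7.77 and 7.31 against 6.72, 6.999, 7.15 and 6.96 log2, a difference of 0.50 ± 0.14 (SE; 95% interval 0.19 to 0.82). Each of these 10 genes had higher means in GFP- than in GFP+ arrays. After octanol the GFP- means were 14.144 log2 for Ncf1, 12.683 for Stfa2l1, 12.185 for Glrx, 11.253 for Sox9 and 8.22 for Aqp5. What part GFP- cells play in the GFP+ differences was not tested.

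Among the lower ones, Kcnt1, a sodium-activated potassium channel, read 6.19, 5.999, 6.15 and 6.23 log2 after octanol and 6.59, 6.69, 6.66 and 6.80 after vehicle. All octanol values were under background, so the difference is given as a bound: the vehicle level was at least 1.29-fold higher, and the measured difference was -0.54 log2 ± 0.10 (SE). Catsperz, an accessory subunit of the sperm calcium channel, was likewise under background in all octanol arrays. Its vehicle mean was 1.24-fold above the background level (measured difference -0.77 log2 ± 0.16, SE). Cabyr, a calcium-binding protein of the sperm tail, differed by -0.79 log2 and Gpr173, an orphan receptor, by -0.60 log2, above background on 3 and 2 octanol arrays. Brip1, a DNA repair helicase, read 8.03, 7.59, 8.21 and 7.91 log2 after octanol and 8.34, 8.55, 8.65 and 8.52 after vehicle, a difference of -0.58 log2 ± 0.15 (SE). Bicra, a subunit of a chromatin remodelling complex, differed by -0.51 log2, and the zinc finger genes Zfp964 and Zfp30 by -0.63 and -0.51 log2. All 24 genes, receptors included, kept the sign of their difference under each alternative that gave them a value. Leaving out a single array could not reverse it, because these genes were chosen for groups that do not overlap. The kept signs therefore add no support for a difference. Catsperz has no value under the filter on dim genes.

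Transcripts of neutrophils, which are not neurons, made the list with the largest median difference. Of the 6 neutrophil genes, 4 were higher at the unadjusted level and 0 lower, against 2.26% of all genes higher. The median was 1.59 log2 and the smallest difference 0.108 log2. The list was chosen with earlier results of these data known, so its count is a description and not a test. Its members also moved together over the 8 arrays (correlation 0.959 for Retnlg and Ngp, 0.943 for S100a8 and S100a9), so they are not separate observations. Retnlg, a resistin-like protein gene of neutrophils, read 8.70, 9.16, 11.03 and 12.18 log2 after octanol and 8.49, 7.82, 7.46 and 8.85 after vehicle. Octanol replicates 3 and 4 were the highest, and octanol replicate 1 lay within the vehicle range, for a difference of 2.12 log2 ± 0.69 (SE; 95% interval 0.58 to 3.65). Ngp, a granule protein gene, read 9.94, 9.90, 11.59 and 13.22 against 10.46, 8.38, 8.36 and 9.89 log2, with vehicle replicate 1 above octanol replicates 1 and 2. Mmp8, the neutrophil collagenase, was above background on 3 octanol and 2 vehicle arrays, with a measured difference of 1.49 log2 ± 0.55 (SE), whose size is uncertain for that reason. S100a8 differed by 1.38 log2 ± 0.67 (SE). In GFP- arrays these transcripts were far more abundant, with a list median of 15.67 to 17.07 log2, and the list difference there was 0.48 log2. In the GFP+ arrays the list median was 8.19, 8.41, 10.33 and 10.83 log2 in octanol replicates 1 to 4 and 8.38, 7.26, 7.33 and 8.50 in vehicle replicates. What part these cells play in other differences was not tested.

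Of the 12619 genes above background, 11 differed by more than 1 log2, all of them higher. Among the 11 are S100a8 and 4 of the other neutrophil genes, and Lcn2, lipocalin 2, at 1.38, Ly6c2, a surface antigen of myeloid cells, at 1.30 and Chil3, a chitinase-like protein, at 1.05 log2. The other 3 are Bpifb9a, Bpifb9b and Sult1e1, an estrogen sulfotransferase, which read 6.93, 6.35, 7.72 and 7.51 log2 after octanol and 5.08, 6.24, 6.89 and 5.998 after vehicle, with 1 octanol array within the vehicle range and 1 vehicle array above background. The 6 measured myeloid genes had a median of 0.082 log2 with 0 unadjusted differences, although Lyz2, lysozyme, read 9.32, 9.56, 11.19 and 11.25 against 9.19, 9.63, 9.86 and 9.53 log2 and was highest in octanol replicates 3 and 4. The 5 measured lymphoid genes had a median of -0.048 log2 and the 2 measured erythroid genes 0.089 log2, with 0 unadjusted differences.

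Secretory and supporting cell genes were next. The 6 Bowman gland genes had a median of 0.52 log2 with 2 higher at the unadjusted level, Sox9 and Aqp5, and 0 lower, where 2.26% of all genes were higher. Of the 6, 5 had a difference above 0, as did 10103 of all 19505 genes, and the differences ran from -0.128 to 1.948 log2. Gpx6, a glutathione peroxidase of that list, differed by 0.57 log2 ± 0.33 (SE) and Muc5b, a gel-forming mucin gene, by 0.24 log2 ± 0.22. The 6 sustentacular genes all had differences above 0, with a median of 0.34 log2 and 0 past the unadjusted level. Cyp2a5, a cytochrome P450 of odorant metabolism, read 13.86, 13.79, 15.35 and 14.54 log2 after octanol and 13.32, 13.45, 14.39 and 14.52 after vehicle. Octanol replicate 3 was the highest, and without it the sustentacular median was 0.092 log2. Cyp2g1, the olfactory cytochrome P450, differed by 0.15 log2 ± 0.32 (SE), and Cyp1a2 and Ermn, an actin-linking protein gene, by 0.33 and 0.41 log2. All 5 horizontal basal genes had means under background. The 5 measured progenitor and cell cycle genes had a median of 0.13 log2, with 1 higher at the unadjusted level, Mki67, the proliferation antigen, above background on 2 of 4 vehicle arrays, at 0.53 log2 ± 0.22 (SE; 95% interval 0.02 to 1.03).

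Of the remaining cell type lists, 0 members differed at the unadjusted level. The medians were -0.225 log2 for 6 microvillar and tuft genes, -0.115 for 5 ciliated, -0.082 for 5 endothelial, -0.031 for 4 ensheathing glia and 0.027 for 5 fibroblast genes. All 5 endothelial genes were under background.

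Bpifb9a and Bpifb9b, secreted lipid-binding proteins of the family whose upstream sequences are given above, combined large mean differences with a large spread between pools. Bpifb9a read 14.51, 13.96, 10.81 and 8.79 log2 after octanol and 10.14, 10.62, 10.27 and 8.37 after vehicle. Its difference was the largest of all genes above background. Octanol replicates 1 and 2 were far above all other arrays, octanol replicate 4 was below vehicle replicates 1 to 3, and the difference of 2.17 log2 ± 1.13 (SE) had a 95% interval of -0.35 to 4.68. Bpifb9b, at 16.58, 15.91, 13.31 and 11.08 against 12.56, 12.93, 12.78 and 10.82 log2, had the same high and low arrays. In GFP- cells the octanol arrays of replicates 1 and 2 were again the highest, with Bpifb9a at 15.62, 14.67, 11.02 and 8.74 log2 after octanol and 10.30, 11.29, 10.26 and 9.31 after vehicle. Arrays that share exposure and number were taken to come from the same pool, which the number of mice implies and the labels do not state.

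Some other transcripts had the same high and low replicate numbers in both exposures. Obp2a, an odorant-binding protein of nasal glands chosen after its values were seen, read 12.12, 11.96, 15.23 and 13.88 log2 in octanol replicates 1 to 4 and 12.09, 11.33, 15.07 and 12.50 in vehicle replicates 1 to 4, highest in replicate 3 of both. Eif2s3y, a Y-linked translation factor gene, read 10.83, 10.56, 9.91 and 11.93 log2 and 11.08, 10.62, 9.63 and 11.95 log2, with replicate 4 highest and replicate 3 lowest in both exposures. Y-linked Uty ran from 10.37 to 11.80 log2 after octanol and from 10.23 to 11.79 after vehicle with the same 2 numbers at the ends. Kdm5d, also Y-linked, was highest in replicate 4 of both exposures. Its lowest array was replicate 2 after octanol (7.69 log2, with replicate 3 at 7.72) and replicate 3 after vehicle (7.37 log2). Kdm5d differed between exposures by -0.26 log2 ± 0.46 (SE).

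**Figure D5:**
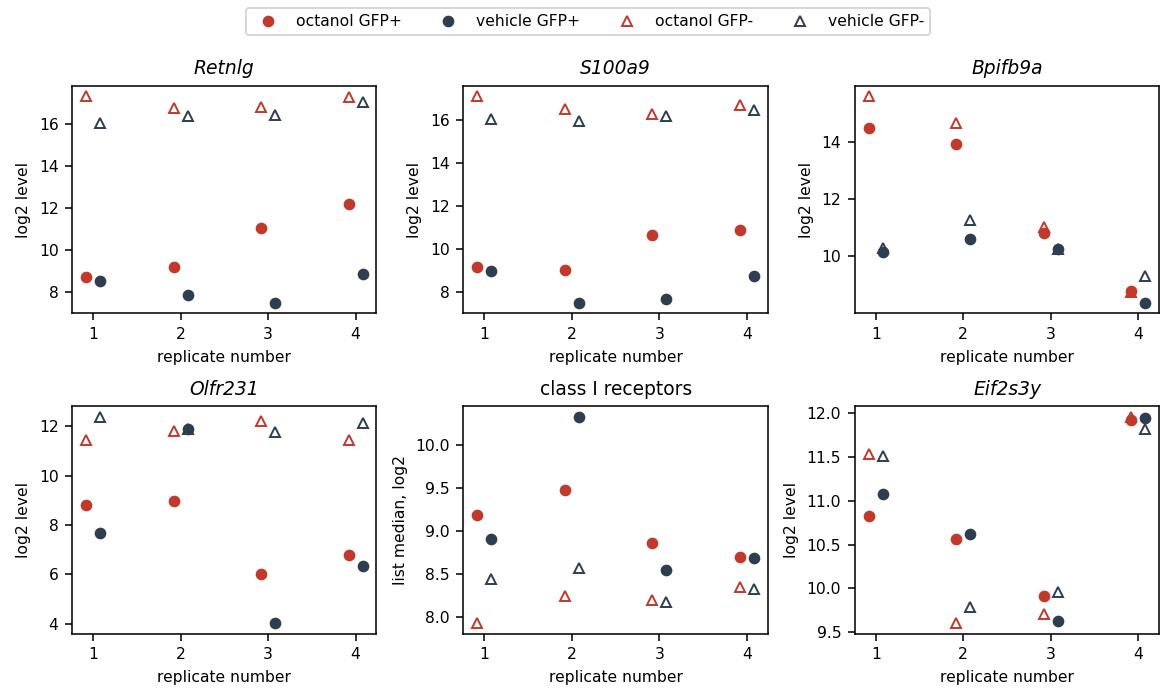
Log2 level (vertical axis) by replicate number (horizontal axis) of 5 genes and the median level of 121 class I receptors, for octanol (red) and vehicle (dark) in GFP+ (filled circles) and GFP- (open triangles) arrays. Retnlg and S100a9 are high in octanol GFP+ replicates 3 and 4, Bpifb9a in octanol replicates 1 and 2 of both fractions, Olfr231 and class I in vehicle GFP+ replicate 2, and Eif2s3y follows the number.

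The same exposure comparison was made in GFP- cells and set beside the GFP+ values. In GFP- arrays 394 genes were higher (2.02%) and 500 lower (2.56%) at the unadjusted level, and 0 passed the adjusted test (smallest adjusted p in limma 0.982). Of the receptors there, 110 of 1091 were lower (10.1%) and 9 higher, with a median of -0.16 log2, where GFP+ cells gave 16 lower and 0.013 log2. In the same GFP- arrays the 12 immature neuron genes had a median of -0.239 log2 with 3 lower at the unadjusted level, and the 5 lymphoid genes a median of -0.52 log2 with 0 lower; their part in the receptor values was not tested. The difference between the 2 effects was tested with the pool as a block, and 0 genes passed (smallest adjusted p 0.863), with 505 genes at an unadjusted p under 0.05 above 0 (2.59%) and 381 below 0 (1.95%). Of the receptors, 65 had a higher effect in GFP+ than in GFP- cells at this unadjusted level (5.96%) and 9 a lower one. Olfr95, a class II receptor on chromosome 17, had the smallest such p. It read 12.18, 12.52, 11.43 and 12.33 log2 after octanol and 11.37, 12.37, 11.54 and 11.81 after vehicle in GFP+ arrays, which overlapped, and 10.04, 10.39, 9.95 and 10.89 against 10.98, 12.04, 11.74 and 11.38 in GFP- arrays, where every octanol value was below every vehicle value. Its GFP+ difference was 0.34 log2 and its GFP- difference -1.22 log2, so the effects differed by 1.56 log2 ± 0.22 (SE; limma adjusted p = 0.863). Olfr715b, an unclassified receptor, gave 0.35 log2 in GFP+ and -0.96 log2 in GFP- arrays. The other 4 genes with the smallest p of this difference were Gm11110, Krt39 and Prl7a2, under background on every GFP+ array, and Tm4sf19, a tetraspanin-like protein gene, at -0.21 log2 in GFP+ and 0.55 log2 in GFP- arrays.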

How the data were processed

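The authors' deposited values are log2 signals computed with Affymetrix Expression Console, per the submitters' processing notes; its version is not given in the sources used here, and no further scaling was applied. Of 28846 probe sets, 19572 carry 1 gene symbol in the platform annotation. The probe set with the highest mean was kept per gene, which left out 67 and gave 19505 genes, all matched by Entrez number to RefSeq. Receptor class came from the MOR number among synonyms (up to 42 is class I). Differences were tested with limma 3.58.1 in R 4.3.3 (lmFit and eBayes, 2-sided) on 8 arrays, with Benjamini-Hochberg adjustment over all genes and a threshold of 0.05; the effect difference used 16 arrays with the pool as a block. The code was tested on simulated data. Named genes were those past the threshold (none), then the 12 per direction with the largest difference among genes at an unadjusted p under 0.05 without overlap and above background in the higher group, the receptors among such genes by p, list members of largest difference, check genes, the 6 of largest spread and the 6 with the smallest p for the effect difference. Members and lists were chosen with earlier results of these data known. The number of arrays limits the precision. Sequences were aligned with Biopython 1.88. Alternatives covered scaling, filtering, variance model, blocks and single arrays.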

Additional observations from a re-analysis of the deposited data

Results flagged for a closer look

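In 7 of 146 groups of 4 arrays examined, the extreme array stood apart from its nearest neighbour by more than Dixon's critical value at the 95% level; chance gives about 1 such group in 20. Dbf4 was high in vehicle replicate 1 at 6.832 log2, with the others at 6.576 to 6.609. Egr1 was low in vehicle replicate 2 at 8.409 log2, with the others at 8.607 to 8.642, and still above every octanol array. Olfr856-ps1 was high in the same vehicle replicate 2 at 7.003 log2, with the others at 6.410 to 6.485. S100a5 was high in octanol replicate 3 at 16.858 log2, with the others at 16.772 to 16.786. The sustentacular list median (10.707 log2, others 9.762 to 9.858) and the Bowman gland list median (7.987 log2, others 7.618 to 7.672) were both high in octanol replicate 3. The lymphoid list median was low in vehicle replicate 3 at 6.046 log2, with the others at 6.406 to 6.476.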

How the results depend on the processing

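Octanol against vehicle in GFP+ cells gave 0 genes past the threshold under every alternative run: 3 scalings, a filter on dim genes, the trended robust prior, array weights, the replicate block (0 genes, smallest adjusted p 0.8691), 16 arrays with the pool as a random block (0.1976), the dimmest probe set per gene, and each of 8 arrays left out (0.5295 to 1). The GFP- comparison (0.974 and, with the replicate block, 0.639) and the effect difference (0.981 and 1) also gave 0. The replicate block changed no call. The labels give no shared animal or batch for a replicate number. Same-numbered GFP+ arrays of the exposures had residual correlations of 0.058, 0.23, 0.129 and 0.195. Of 8 arrays, 4 correlated best with their own number, each among only the 4 arrays of the other exposure. Part of the variation may follow the number, which was not tested. With the replicate block 505 genes were higher and 301 lower at an unadjusted p under 0.05. The count of genes at an unadjusted p under 0.05 that were higher was 440; it was 164 with arrays centred on receptors, 199 with the filter on dim genes and 673 without octanol replicate 2; the lower count was 287, and 184 with that filter. The median over all genes moved from 0.006 to -0.013 log2 with arrays centred on their median and to -0.037 with arrays centred on receptors. Of 77 named genes, 64 kept their direction under the alternatives that gave them a value; 5 (Adh7, Arc, Catsperz, Nr4a2 and Taar5) have none under the filter on dim genes. With arrays centred on receptors Omp was -0.005 and Uty -0.013 log2; with array weights Eif2s3y was 0.094 and Olfr250 -0.111 log2. Leaving out single arrays moved Adcy3 between -0.057 and 0.005, Cyp2g1 between -0.135 and 0.338, Eif2s3y between -0.412 and 0.363, Kdm5d between -0.612 and 0.108, Kirrel2 between -0.004 and 0.477, Obp2a between -0.094 and 1.322, Pcp4l1 between -0.012 and 0.103, Uty between -0.257 and 0.327, Olfr231 between -0.995 and 1.631, Olfr250 between -0.665 and 1.184, Olfr1043 between -0.466 and 1.336, and Olfr1451 between -0.414 and 1.453 log2. The cause was not tested. The ensheathing glia median turned from -0.031 to 0.152 log2 with dim genes left out, which leaves fewer genes. Signal near background limits the receptors whose mean lies under it, and 4 pools per group limit all comparisons.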
